A study of Mus musculus with 4 samples.

Results

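The interferon response genes are a set of 38 genes that cells switch on when an interferon reaches them. The set was listed by symbol, with earlier results of these data known. Its genes were read in epididymal fat of mice with or without *Mir342*. Of the 22180 genes that the array reads through a probe with 1 gene symbol, 34 belonged to the set. A further 3 members were read only through a probe shared with a second gene, and *Ifi44* had no named probe. Following the way the set was drawn up, 10 members formed a type I group (the *Oas*, *Ifit* and *Mx* genes), 12 a gamma-type group (the *Gbp* and *Irgm* genes, *Igtp*, *Psmb8*, *Psmb9* and *Tap1*) and 16 were other members. The split is one of emphasis, since most of these genes answer to both kinds of interferon.

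The fat came from male C57BL/6J mice at 16 weeks of age in 4 groups: *Mir342* (-/-) on high fat-high sucrose (HFHS) chow, *Mir342* (+/+) on HFHS chow, *Mir342* (-/-) on standard (STD) chow and *Mir342* (+/+) on STD chow. Each group was represented by 1 GeneChip Mouse Gene 2.0 ST array, which reads a gene through short probes along its exons. There were thus no replicates, and a difference between 2 arrays carries no error of its own. The knockout is constitutive: a selection cassette takes the place of the microRNA inside an intron of *Evl* in every cell, and embryonic stem cells of one C57BL/6 substrain were used before crossing to another, with littermates of both genotypes compared. The study names several animals per group, and whether their RNA was pooled for the array is not stated. The *Mir342* probe read 4.46 in HFHS (-/-) against 5.52 in HFHS (+/+), and 4.62 in STD (-/-) against 5.43 in STD (+/+), so that it was lower in the knockout array on both diets, as labelled. All values are log2 expression values as deposited. A floor of 5.06, the 95th percentile of 1438 olfactory, vomeronasal and taste receptor probes, marked the level under which a probe was not read, and 12952 genes had a mean above it. The *Mir342* probe had a mean of 5.01, under this floor. Its (-/-) readings lay below the floor and its (+/+) readings above it, so that this check of the labels rests on low readings.

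Type I interferons, which most cells can make after sensing foreign nucleic acid, bind a receptor of IFNAR1 and IFNAR2. A complex that holds STAT2 and IRF9 then binds the interferon-stimulated response element (ISRE). Interferon gamma, made mainly by T and NK cells, binds IFNGR1 and IFNGR2 and acts through the gamma-activated site (GAS). Fat of obese animals gathers macrophages, which respond to both kinds of interferon.

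The miR-342-3p sequence (RefSeq, GRCm38.p6, chr12:108658680-108658702, plus strand) is what the knockout removes, and its seed, bases 2 to 8, is in capitals.
miR-342-3p: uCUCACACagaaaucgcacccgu

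Promoter sequence from RefSeq was at hand for 28 of the 38 members. The ISRE core GAAANNGAAA (TTTCNNTTTC on the other strand) lay within 250 bases before to 50 after the start of 16 of the 28, or 57.1%, against 3.99% of 27025 genes. The GAS letters TTCNNNGAA, which read the same on both strands, lay in 9 of the 28, or 32.1%, against 9.55% of all genes. Both were present in 6 of the 28 (21.4%), against 0.540% of all genes, and 4 of these 6 were gamma-type members. By group, the ISRE core was in 4 of 7 type I, 7 of 10 gamma-type and 5 of 11 other members, and GAS in 2, 5 and 2 of them. A match describes letters and does not show that a factor binds there. The windows of *Usp18*, *Mx1*, *Mx2*, *Gbp4*, *Gbp6*, *Oas2*, *Parp9*, *Parp14*, *Dhx58* and *Rtp4* were not looked at here.

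The 150 bases before the start are given for 4 gamma-type members with large diet differences. They are also given for *Ifit1* of the type I group and *Rsad2* of the other members. Every match is in capitals (RefSeq, GRCm38.p6).
*Igtp* (chr11:58199406-58199555, plus strand): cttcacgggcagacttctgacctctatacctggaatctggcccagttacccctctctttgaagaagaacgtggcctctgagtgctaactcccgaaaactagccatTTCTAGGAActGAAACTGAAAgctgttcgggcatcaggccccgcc
*Irgm2* (chr11:58214827-58214976, plus strand): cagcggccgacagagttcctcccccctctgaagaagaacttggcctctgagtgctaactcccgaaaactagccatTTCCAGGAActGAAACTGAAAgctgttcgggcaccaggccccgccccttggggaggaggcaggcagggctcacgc
*Gbp7* (chr3:142530186-142530335, plus strand): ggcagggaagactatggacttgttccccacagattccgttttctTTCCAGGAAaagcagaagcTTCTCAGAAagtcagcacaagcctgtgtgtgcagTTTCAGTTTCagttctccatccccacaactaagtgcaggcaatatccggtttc
*Gbp3* (chr3:142559894-142560043, plus strand): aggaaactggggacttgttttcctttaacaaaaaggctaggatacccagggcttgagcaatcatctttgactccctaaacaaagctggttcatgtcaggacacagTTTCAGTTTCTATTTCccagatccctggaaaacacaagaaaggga
*Ifit1* (chr19:34640739-34640888, plus strand): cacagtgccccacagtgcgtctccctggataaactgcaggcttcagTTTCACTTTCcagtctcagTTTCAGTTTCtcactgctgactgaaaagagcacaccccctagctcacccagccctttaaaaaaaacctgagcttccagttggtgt
*Rsad2* (chr12:26456453-26456602, minus strand): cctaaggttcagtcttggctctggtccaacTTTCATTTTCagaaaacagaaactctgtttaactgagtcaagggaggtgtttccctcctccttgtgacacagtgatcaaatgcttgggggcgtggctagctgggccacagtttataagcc
Counted from the start, the GAS letters began at -45 and the ISRE core at -34 in *Igtp*. They began at -75 and -64 in *Irgm2*, with the same spacing, and the printed windows of this pair of neighbouring genes shared an identical run of 38 bases. *Gbp7* had GAS letters at -106 and -87 and an ISRE core at -53. In *Gbp3* a pair of overlapping ISRE cores began at -45 and -39 and no GAS was found. *Ifit1* carried ISRE cores at -104 and -85 and *Rsad2* a single one at -120, both without GAS letters.

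**Figure D1:**
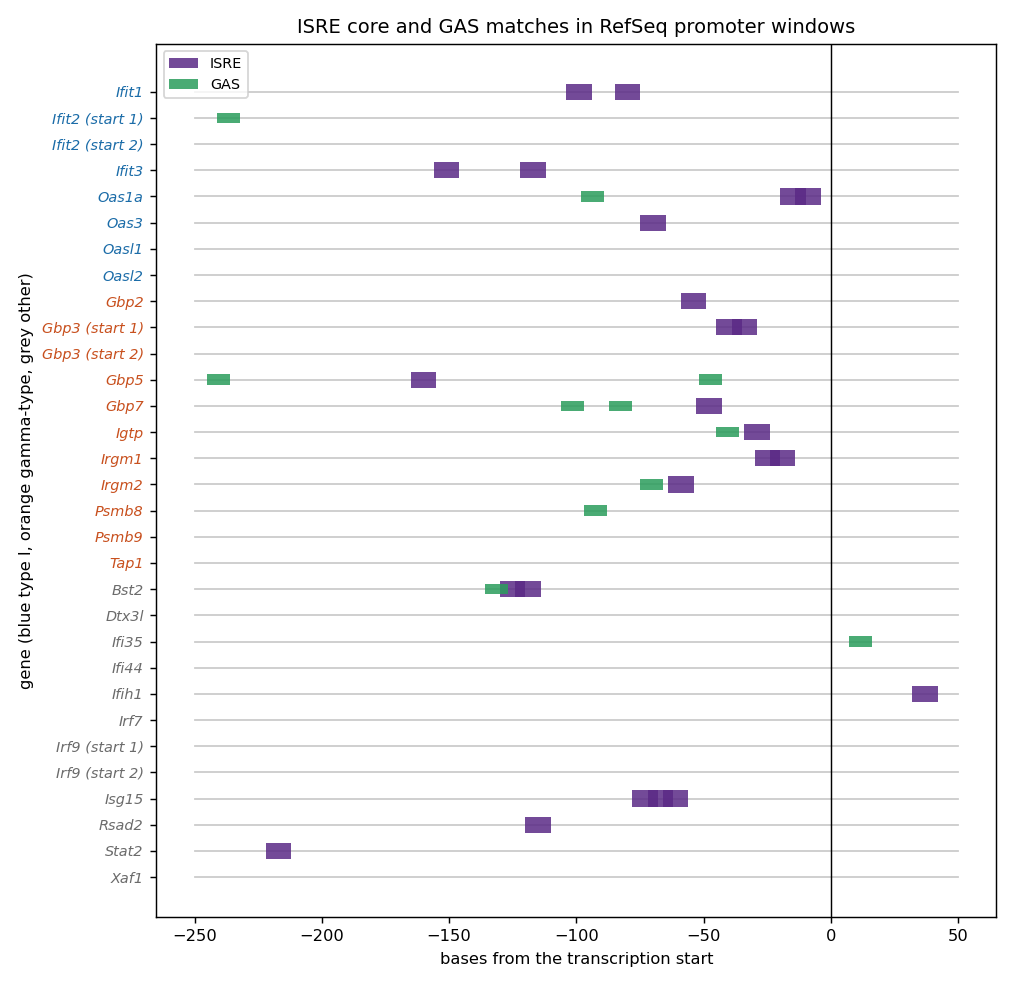
Positions of the ISRE core (purple) and GAS letters (green) in the RefSeq windows of 28 interferon response genes, in bases from the transcription start, 1 row per window, so that a gene with 2 starts has 2 rows. Gamma-type genes (orange names) hold 7 ISRE and 5 GAS genes of 10, type I genes (blue names) 4 and 2 of 7, and other members (grey names) 5 and 2 of 11.

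Of the 34 members with a probe of their own, 29 had a mean above the floor, and each of the 29 was above it in all 4 arrays, so none was kept through a single group. They were 7 type I, 9 gamma-type and 13 other members. *Isg15*, the ubiquitin-like protein of the response, read 4.73 in HFHS (-/-), 5.14 in HFHS (+/+), 4.48 in STD (-/-) and 4.58 in STD (+/+). Only the HFHS (+/+) array was over the floor. *Gbp5*, which in macrophages helps inflammasomes to assemble, read 5.46 in HFHS (-/-) and 5.25 in HFHS (+/+), against 4.97 in STD (-/-) and 4.43 in STD (+/+). It was above the floor on HFHS alone, at least 1.31-fold higher than on STD in (-/-) and at least 1.14-fold higher in (+/+), with the floor taken as the STD level. *Mx1* (3.66 to 3.87), *Mx2* (3.78 to 4.55) and *Gbp6* (2.60 to 2.77) lay under the floor in every array. Most inbred mouse strains carry a defective *Mx1*.

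**Figure D2:**
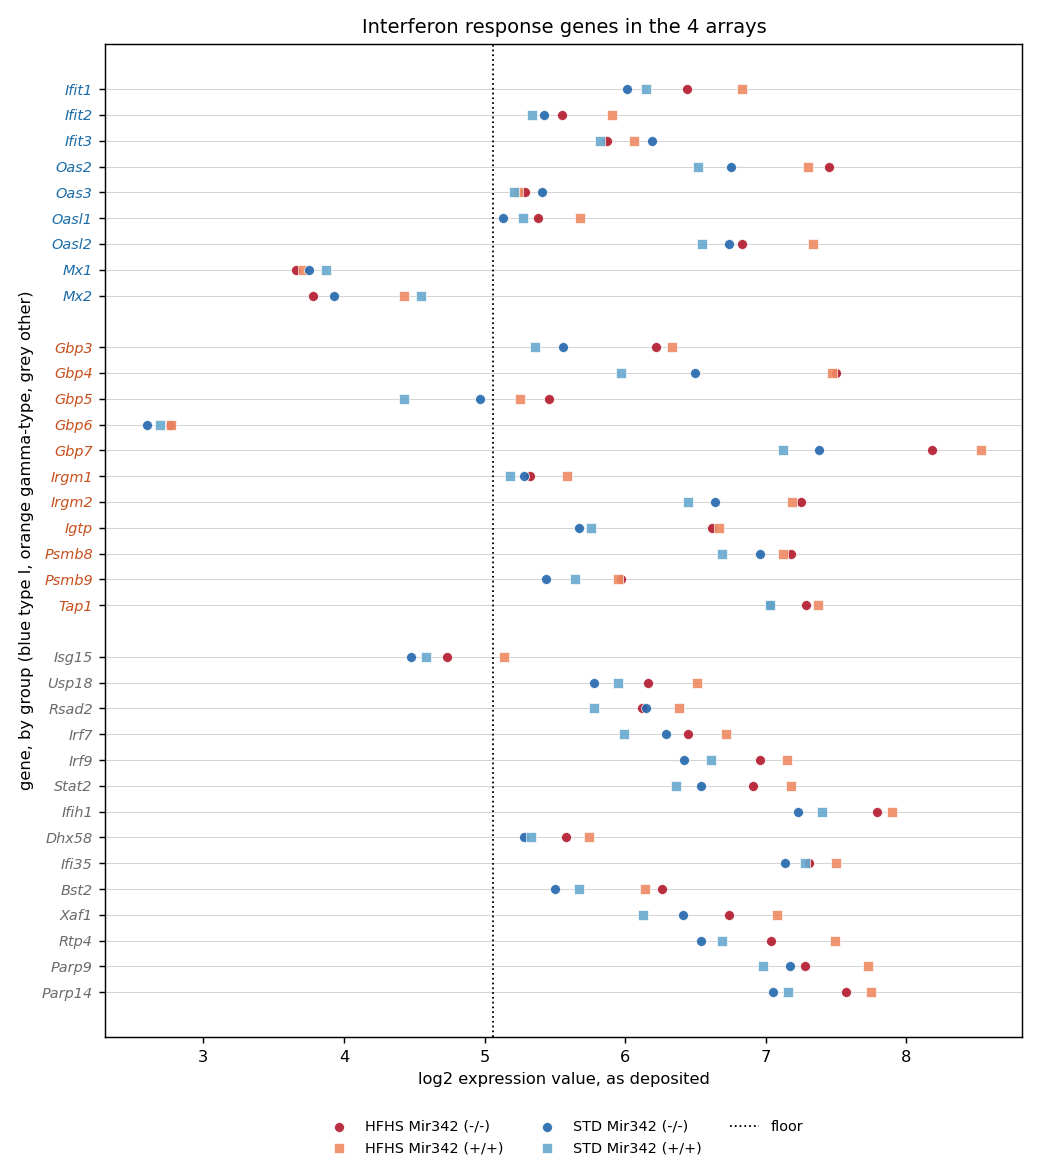
Deposited log2 values of the 34 interferon response genes with a probe of their own in the 4 arrays (red and orange, HFHS; dark and light blue, STD; circles, (-/-); squares, (+/+)), with the floor of 5.06 dotted. The HFHS points lie to the right of both STD points in 26 of the 29 genes above the floor, with *Rsad2*, *Ifit3* and *Oas3* as exceptions.

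HFHS chow went with higher values of the set in both genotypes. Both HFHS arrays were above both STD arrays in 26 of the 29 members, a pattern that 29.5% of all genes had. Without the STD (+/+) array, 26 of 29 had both HFHS arrays above the STD array that was left, beside 48.8% of all genes. The median member was 0.37 higher on HFHS than on STD in (-/-), where the median of all genes was 0.05, and 0.59 higher in (+/+), where it was 0.02. At least 1.5-fold higher on HFHS were 7 of 29 members in (-/-) (3.13% of all genes) and 15 of 29 in (+/+) (6.53% of all genes). No member was 1.5-fold lower in either genotype (1.31% of all genes in (-/-) and 4.66% in (+/+)). In whole fat, more RNA per cell and more cells of a type cannot be told apart.

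The guanylate-binding proteins are interferon-induced GTPases that coat the vacuoles of pathogens. Among the members above the floor, *Gbp4*, *Gbp7* and *Gbp3* had the largest diet differences in (+/+). In (-/-) *Gbp4* was also the first, but *Igtp* (0.94) came before *Gbp7* (0.79), and *Bst2* (0.76) and *Oas2* (0.70) before *Gbp3* (0.66). *Gbp4* read 7.50 in HFHS (-/-) and 7.47 in HFHS (+/+), against 6.50 in STD (-/-) and 5.97 in STD (+/+). *Gbp7* read 8.18 in HFHS (-/-) and 8.53 in HFHS (+/+), against 7.38 in STD (-/-) and 7.12 in STD (+/+). *Gbp3* read 6.22 in HFHS (-/-) and 6.33 in HFHS (+/+), against 5.56 in STD (-/-) and 5.36 in STD (+/+). In all 3 the STD (+/+) array was the lowest and the gap to STD was wider in (+/+) than in (-/-). For *Gbp4* it was 1.51 (2.84-fold) in (+/+) and 2.00-fold in (-/-). The probe shared by *Gbp2* and *Gbp2b* had the same order, at 7.85 in HFHS (-/-) and 7.89 in HFHS (+/+), against 7.15 in STD (-/-) and 6.63 in STD (+/+). The *Gbp* genes are similar in sequence within clusters on separate chromosomes, *Gbp2*, *Gbp3*, *Gbp5* and *Gbp7* in one and *Gbp4* and *Gbp6* in another, and how far a probe reads its neighbours was not tested.

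The immunity-related GTPases work beside the GBPs against intracellular pathogens. *Igtp* (also called *Irgm3*) read 6.62 in HFHS (-/-) and 6.67 in HFHS (+/+), against 5.67 in STD (-/-) and 5.76 in STD (+/+). Its diet difference was nearly the same in both genotypes, 0.94 in (-/-) and 0.91 in (+/+). *Irgm2* read 7.25 in HFHS (-/-) and 7.19 in HFHS (+/+), against 6.64 in STD (-/-) and 6.45 in STD (+/+). *Irgm1*, which restrains the other GTPases of the family, read 5.32 in HFHS (-/-) and 5.59 in HFHS (+/+), against 5.28 in STD (-/-) and 5.18 in STD (+/+), and in (-/-) its diet difference was only 0.04.

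The remaining gamma-type members serve antigen presentation. *Psmb8* and *Psmb9*, subunits of the immunoproteasome, differed by 0.23 and 0.54 in (-/-) and by 0.43 and 0.31 in (+/+). *Tap1*, a subunit of the transporter of peptides into the endoplasmic reticulum, differed by 0.26 in (-/-) and 0.34 in (+/+). All 9 gamma-type members above the floor had both HFHS arrays over both STD arrays.

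In the type I group, 5 of the 7 members above the floor had both HFHS arrays over both STD arrays. *Oas2*, which makes the oligoadenylates that activate RNase L, read 7.45 in HFHS (-/-) and 7.30 in HFHS (+/+), against 6.75 in STD (-/-) and 6.52 in STD (+/+). It was higher on HFHS by 0.70 in (-/-) and 0.79 in (+/+), with both HFHS arrays clear of both STD arrays. *Oasl2*, an OAS-like protein, read 6.83 in HFHS (-/-) and 7.34 in HFHS (+/+), against 6.74 in STD (-/-) and 6.55 in STD (+/+). Here the HFHS (+/+) array stood alone, and the diet difference was 0.09 in (-/-) against 0.79 in (+/+). *Oas3* showed no such order, with 5.29 in HFHS (-/-) and 5.24 in HFHS (+/+), against 5.41 in STD (-/-) and 5.21 in STD (+/+). *Oasl1*, which in mice holds back translation of *Irf7*, differed by 0.25 in (-/-) and 0.41 in (+/+). The probe shared by *Oas1a* and *Oas1g* read 5.66 in HFHS (-/-) and 5.63 in HFHS (+/+), against 5.01 in STD (-/-) and 4.98 in STD (+/+). Both STD values were under the floor, so that it was at least 1.51-fold higher on HFHS in (-/-) and at least 1.48-fold higher in (+/+).

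The IFIT proteins bind the ends of foreign RNA. *Ifit1* read 6.44 in HFHS (-/-) and 6.83 in HFHS (+/+), against 6.01 in STD (-/-) and 6.15 in STD (+/+). *Ifit2* read 5.55 in HFHS (-/-) and 5.91 in HFHS (+/+), against 5.42 in STD (-/-) and 5.34 in STD (+/+). Both were highest in HFHS (+/+). *Ifit3* and *Oas3* were the 2 members above the floor that were highest in an STD array, that of (-/-). *Ifit3* read 5.87 in HFHS (-/-) and 6.06 in HFHS (+/+), against 6.19 in STD (-/-) and 5.82 in STD (+/+).

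Set side by side, the median type I member was 0.12 higher on HFHS in (-/-), against 0.61 for the median gamma-type member, a gap of -0.49. In (+/+) the medians were 0.57 and 0.73, a gap of -0.16, which ran between -0.32 and -0.04 over the alternatives. With *Usp18*, *Rsad2*, *Irf7*, *Ifih1*, *Dhx58*, *Rtp4*, *Xaf1* and *Bst2* added to the type I side (15 genes above the floor), the gaps were -0.32 in (-/-) and -0.16 in (+/+). The gap in (-/-) rested in part on low genes, since it was -0.27 over the 3 type I and 6 gamma-type members left when the floor was raised by 1. Members are not replicates, and the gaps were not tested.

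Of the members that carry the signal, *Stat2* read 6.91 in HFHS (-/-) and 7.18 in HFHS (+/+), against 6.54 in STD (-/-) and 6.36 in STD (+/+). *Irf9* read 6.96 in HFHS (-/-) and 7.15 in HFHS (+/+), against 6.42 in STD (-/-) and 6.61 in STD (+/+), a diet difference of 0.54 in both genotypes. *Irf7*, the factor that amplifies type I interferon transcription, read 6.45 in HFHS (-/-) and 6.72 in HFHS (+/+), against 6.29 in STD (-/-) and 5.99 in STD (+/+). The diet difference of *Irf7* was 0.16 in (-/-) and 0.73 in (+/+). *Usp18*, which takes ISG15 off proteins and damps signalling at IFNAR2, differed by 0.37 in (-/-) and 0.56 in (+/+). The RNA sensor *Ifih1* (MDA5) differed by 0.55 in (-/-) and 0.51 in (+/+), and *Dhx58* (LGP2), which modulates it, by 0.29 in (-/-) and 0.41 in (+/+).

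Antiviral effectors and the ADP-ribosylation genes followed. *Rsad2* (viperin), an enzyme that makes a chain-terminating nucleotide, read 6.12 in HFHS (-/-) and 6.38 in HFHS (+/+), against 6.15 in STD (-/-) and 5.78 in STD (+/+). Its 2 (-/-) arrays differed by -0.03, and its (+/+) arrays by 0.59. *Bst2* (tetherin), which holds budding virions at the cell surface, read 6.26 in HFHS (-/-) and 6.14 in HFHS (+/+), against 5.50 in STD (-/-) and 5.67 in STD (+/+). It was 1 of 4 members with a larger diet difference in (-/-), 0.76, than in (+/+), 0.47, the others being *Psmb9*, *Ifih1* and *Igtp*. *Xaf1*, a binder of the apoptosis inhibitor XIAP, read 6.74 in HFHS (-/-) and 7.08 in HFHS (+/+), against 6.41 in STD (-/-) and 6.13 in STD (+/+). *Rtp4*, a chaperone of membrane receptors, read 7.04 in HFHS (-/-) and 7.49 in HFHS (+/+), against 6.54 in STD (-/-) and 6.69 in STD (+/+). *Parp9* read 7.28 in HFHS (-/-) and 7.73 in HFHS (+/+), against 7.17 in STD (-/-) and 6.98 in STD (+/+), and the probe shared by *Dtx3l*, its partner in a ubiquitin ligase, and *Parp9* read 6.99 in HFHS (-/-) and 7.37 in HFHS (+/+), against 6.97 in STD (-/-) and 6.68 in STD (+/+). In *Xaf1*, *Rtp4* and *Parp9* alike, the HFHS (+/+) array was the highest. *Parp14*, a mono-ADP-ribosyltransferase, differed by 0.52 in (-/-) and 0.59 in (+/+). *Ifi35* differed by 0.17 in (-/-) and 0.22 in (+/+), but its second, dimmer probe by -0.13 in (-/-) and -0.01 in (+/+), so its probes disagree.

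A diet effect could be tested only in a fit of genotype and diet as additive terms over all 4 arrays, in which any genotype by diet difference counts as error and 1 residual degree of freedom is left. In limma, with Benjamini-Hochberg adjustment over 12952 genes, 5 of 29 members were higher on HFHS at an adjusted p under 0.05, beside 1.30% of all genes, and 0 were lower, beside 0.540%. They were *Gbp4* (1.25 ± 0.16 SE, 2.39-fold, adjusted p = 0.0302), *Igtp* (0.93 ± 0.12, 1.90-fold, 0.0330), *Gbp7* (1.10 ± 0.17, 2.15-fold, 0.0410), *Oas2* (0.74 ± 0.12, 1.67-fold, 0.0468) and *Gbp3* (0.82 ± 0.14, 1.76-fold, 0.0474). Of these, 4 were of the 9 gamma-type and 1 of the 7 type I members, and none was of the 13 others. Before adjustment, 22 of 29 were higher at p under 0.05, beside 13.0% of all genes, *Irgm2* being the next (0.67 ± 0.12, limma adjusted p = 0.0561). The calls did not hold under quantile normalization, where limma called 0 members, with *Gbp4* and *Igtp* at adjusted p = 0.0968. There 18 of 29 members had an unadjusted p under 0.05 in either direction, beside 2462 of 12936 genes. Nor did they hold with no floor, where limma called 0 of 34 members (smallest adjusted p = 0.148). In that setting 22 of 34 had an unadjusted p under 0.05, beside 2853 of 22180 genes. With the floor raised by 1, it called 10 of 20 members, beside 563 of all 8503 genes. They were the gamma-type *Gbp4*, *Gbp7*, *Irgm2* and *Igtp*, the type I *Ifit1* and *Oas2*, and the other members *Irf9*, *Ifih1*, *Rtp4* and *Parp14*.

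**Figure D3:**
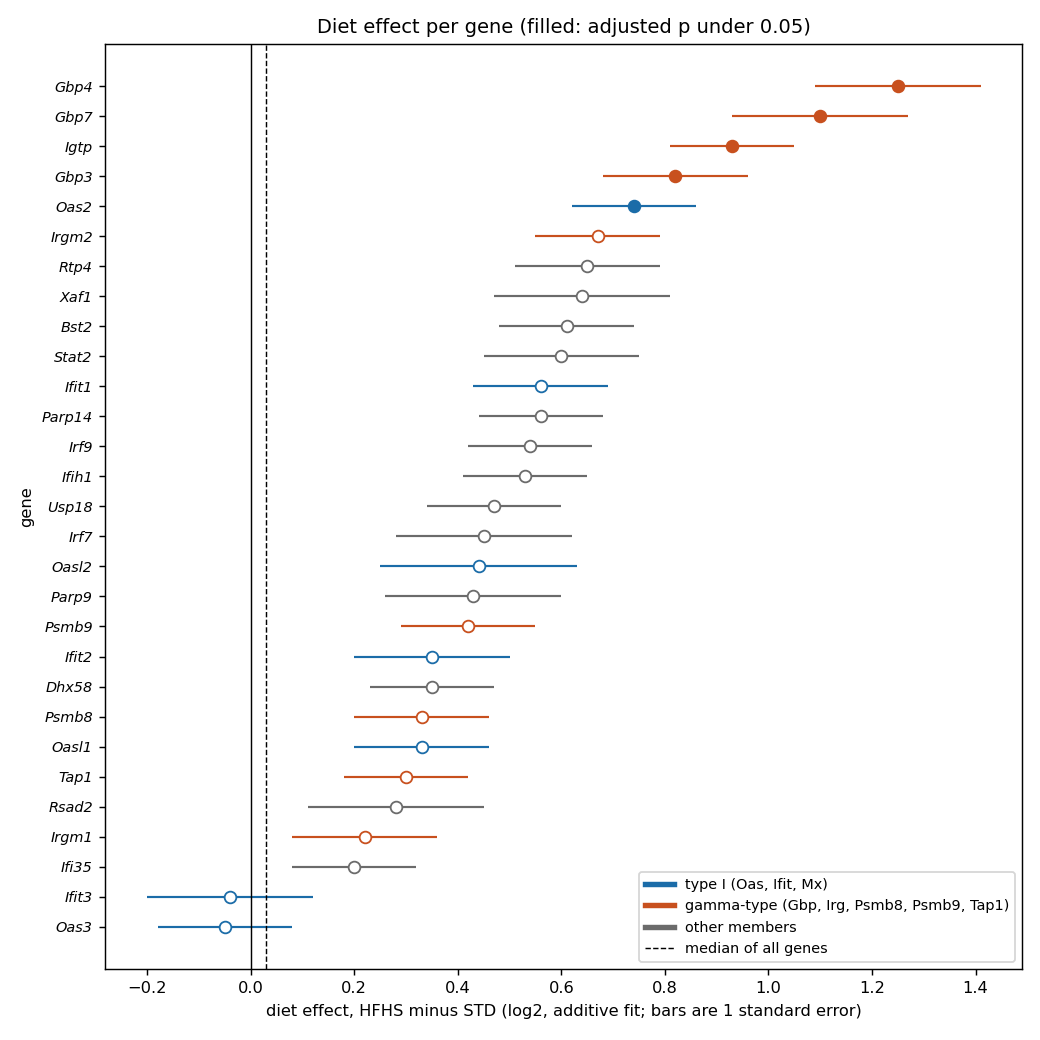
Diet effect (HFHS minus STD, log2, additive fit over 4 arrays) of the 29 interferon response genes above the floor, with bars of 1 standard error, coloured by group and filled where the limma adjusted p was under 0.05. The 5 filled points are *Gbp4*, *Gbp7*, *Igtp*, *Gbp3* and *Oas2*, and *Ifit3* and *Oas3* lie at -0.04 and -0.05.

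Some macrophage markers were higher on HFHS as well. *Adgre1*, a surface receptor of macrophages, read 7.81 in HFHS (-/-) and 7.86 in HFHS (+/+), against 6.89 in STD (-/-) and 6.91 in STD (+/+) (0.94 ± 0.12 SE, limma adjusted p = 0.0320). It was the only one of the 10 macrophage markers, all above the floor, that limma called, and under quantile normalization and with no floor no gene was called for diet. Of the 10, 7 had both HFHS arrays over both STD arrays, beside 29.5% of all genes, and 2 had both HFHS arrays under both STD arrays. *Mertk*, an uptake receptor for dead cells named after its values were seen, was one of these, with differences of -0.57 in (-/-) and -0.65 in (+/+). The median diet difference of the markers was 0.46 in (-/-) and 0.50 in (+/+). Their summed linear level was 3742 and 4032 in the HFHS (-/-) and (+/+) arrays, against 2837 and 3020 in the STD (-/-) and (+/+) arrays. Of 3 conventional dendritic cell markers above the floor, *H2-Ab1*, an MHC class II gene also of macrophages, was higher on HFHS (0.91 ± 0.14 SE, limma adjusted p = 0.0410). *Cd209a* was lower on HFHS, by -0.44 in (-/-) and -0.33 in (+/+), and *Zbtb46* nearly level, at 0.03 in (-/-) and 0.06 in (+/+). *Cd79a*, the only 1 of 4 B cell markers with a probe that was above the floor, differed by 1.05 in (-/-) and 0.52 in (+/+) without being called. Its STD readings, 4.87 in (-/-) and 5.03 in (+/+), lay under the floor, so the size of these differences is uncertain. The part of the numbers of these cells in the interferon response genes was not tested. *Siglech*, the marker of plasmacytoid dendritic cells, read between 3.94 and 4.48, and 0 of the 5 markers of that cell with a probe were above the floor. Of T and NK cell markers 1 of 6 each was above it, among them *Cd3e*, which read 5.38 in HFHS (-/-) and 5.32 in HFHS (+/+), against 5.48 in STD (-/-) and 5.56 in STD (+/+). *Adipoq*, the adipocyte hormone adiponectin, read between 10.16 and 10.57, and 7 of 7 adipocyte markers were above the floor, as the labelled tissue would have it. The STD (+/+) array stood apart in 2 of them, with *Lep* at 11.18 in HFHS (-/-) and 11.48 in HFHS (+/+), against 10.82 in STD (-/-) and 9.28 in STD (+/+), and *Plin1*, a lipid droplet protein, at 10.07 in HFHS (-/-) and 9.94 in HFHS (+/+), against 9.85 in STD (-/-) and 8.89 in STD (+/+).

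Between genotypes the median member differed less than between diets, and the sign of the median was not the same on both diets. On HFHS, 22 of 29 (75.9%) were lower in (-/-) than in (+/+), beside 56.4% of all genes, with a median of -0.19 against -0.03 over all genes. No member differed 1.5-fold, while 0.448% of all genes were that much higher in (-/-) and 0.849% lower. On STD, 17 of 29 (58.6%) were higher in (-/-), beside 41.7% of all genes, with a median of 0.10 against -0.06 over all genes. Again no member differed 1.5-fold, while 1.78% of all genes were that much higher and 3.94% lower. Beside the wider spread of all genes on STD, 5 of 5 endothelial markers were lower in STD (-/-) than in STD (+/+), with a median of -0.60. On HFHS all 5 were lower in (-/-) as well, with a median of -0.11. STD (-/-) was the lowest array for 4 of the 5, and STD (+/+) the highest for 3. The part of these markers in the interferon response genes was not tested.

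On HFHS the lowest values of (-/-) relative to (+/+) were those of *Oasl2* (-0.52, 1.43-fold), *Rtp4* (-0.45, 1.37-fold), *Parp9* (-0.45, 1.36-fold) and *Ifit1* (-0.39, 1.31-fold). The type I median was -0.30, that of the other members -0.25 and that of the gamma-type members -0.05, so that the gap between type I and gamma-type was -0.24 (between -0.38 and -0.14 over the alternatives). Below 0 were 5 of 7 type I and 5 of 9 gamma-type members, beside 56.4% of all genes. In the type I group *Oas2* (0.15) and *Oas3* (0.05) were above 0. *Gbp4*, *Irgm2*, *Igtp*, *Psmb8*, *Psmb9* and *Tap1* differed by at most 0.07 in size between the genotypes on this diet, whereas *Gbp7* (-0.35) and *Irgm1* (-0.26) did not follow them. On STD the highest were *Gbp4* (0.53, 1.44-fold), *Rsad2* (0.37, 1.29-fold) and *Ifit3* (0.36, 1.29-fold). The type I and gamma-type medians on STD were 0.19 and 0.18, a gap of 0.01, and that of the other members was -0.11.

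The additive limma fit called 0 of 29 members for genotype, and 0 of all 12952 genes. The smallest adjusted p among members was 0.600. At an unadjusted p under 0.05, 0 members passed in either direction, beside 2.99% of all genes higher in (-/-) and 5.33% lower. *Rtp4* had the largest genotype term in size, -0.30 ± 0.14 SE.

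The sign of the genotype difference turned with the diet in a share of the set: 12 of 29 members (41.4%) were lower in (-/-) on HFHS and higher in (-/-) on STD, a pattern of 20.1% of all genes. A further 10 of 29 were lower in (-/-) on both diets, beside 36.3% of all genes, and 5 of 29 higher on both, beside 21.5%. The double difference, the (-/-) minus (+/+) difference on HFHS minus that on STD, was below 0 in 25 of 29 members (86.2%), beside 45.5% of all genes, with a median of -0.20 against 0.03 over all genes. It was -0.71 for *Oasl2*, -0.64 for *Parp9*, -0.62 for *Rsad2*, *Gbp7* and *Xaf1* each, and -0.57 for *Irf7*. It was close to 0 for *Irf9* (0.00), *Igtp* (0.03) and *Ifih1* (0.04), and above 0 for *Bst2* (0.29) and *Psmb9* (0.22). All 7 type I members were below 0, as were 7 of 9 gamma-type and 11 of 13 other members, with medians of -0.25, -0.20 and -0.19. With 1 array per group this quantity has no error and was not tested. In terms of single arrays, HFHS (+/+) was the highest for 21 of 29 members (72.4%, beside 31.3% of all genes) and STD (+/+) the lowest for 17 (58.6%, beside 28.2% of all genes). Other lists shared parts of this pattern. STD (+/+) was the lowest array for 6 of 7 adipocyte markers and 6 of 7 interferon genes above the floor, and the double difference was below 0 in 6 of 7 adipocyte markers (median -0.23, *Lep* -1.84) and in 7 of 7 interferon genes (median -0.33). How far the STD (+/+) array as a whole bears on the double difference of the members was not tested.

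**Figure D4:**
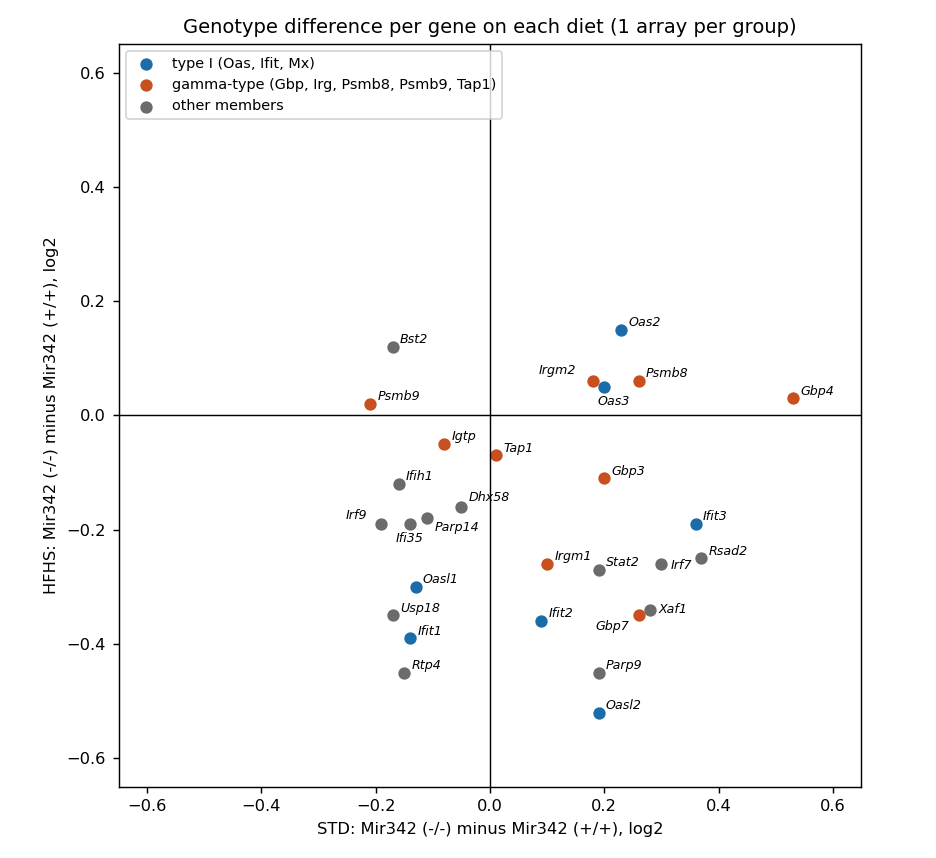
Genotype difference (*Mir342* (-/-) minus *Mir342* (+/+), log2) on HFHS (vertical) and on STD (horizontal) for the 29 interferon response genes above the floor, 1 array per group. The 12 points at the lower right are lower in (-/-) on HFHS and higher in (-/-) on STD, and 22 of the 29 lie under the horizontal line.

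The genes that feed the response were mostly under the floor or not called. *Ifnb1* (3.42 to 3.63) and *Ifng* (4.67 to 4.82), the genes of interferon beta and gamma, lay under the floor in every array. Of 19 interferon genes with a probe 7 were above it, of which limma called 0 for diet (0 before adjustment), and since these genes are close copies their single readings are uncertain. Of 15 receptor and signalling genes above the floor limma called 0 higher on HFHS (1.30% of all genes) and 0 lower (0.540%). Before adjustment 4 of the 15 were higher, beside 13.0% of all genes, and 2 lower, beside 6.70%. *Ifngr2*, the signalling chain of the gamma receptor, read 7.35 in HFHS (-/-) and 7.76 in HFHS (+/+), against 7.02 in STD (-/-) and 6.87 in STD (+/+). *Ifngr1*, which binds the ligand, went the other way, at 10.22 in HFHS (-/-) and 10.30 in HFHS (+/+), against 10.64 in STD (-/-) and 10.61 in STD (+/+) (-0.36 ± 0.12 SE, limma adjusted p = 0.187). *Ifnar2* and *Ifnar1* differed by 0.18 and 0.17 in (-/-) and by 0.58 and 0.45 in (+/+), and *Irf1*, a transcription factor induced early by interferon, by 0.25 in (-/-) and 0.56 in (+/+).

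Further interferon-induced genes, 47 above the floor that are not in the set, had diet medians of 0.30 in (-/-) and 0.38 in (+/+). As for the members, each call named here was lost under quantile normalization and with no floor, and the shares of all genes to set beside the counts are 1.30% higher and 0.540% lower after adjustment, and 13.0% higher and 6.70% lower before it. Limma called 4 of them higher on HFHS, *Iigp1* (1.21 ± 0.16 SE, adjusted p = 0.0332), *Trim30d* (0.96 ± 0.13, 0.0359), *Phf11d* (0.74 ± 0.12, 0.0472) and *Gbp9* (0.87 ± 0.15, 0.0479), and 1 lower, *Ifi205* (-1.03 ± 0.14, 0.0359). *Trim30d* was under the floor in STD (+/+), at 4.83. *Ifi205* belongs to a family of DNA-binding proteins with several near copies. Of 12 nucleic acid sensors 1 was called, *Sting1*, the adaptor of cytosolic DNA sensing, which read 6.91 in HFHS (-/-) and 7.24 in HFHS (+/+), against 6.07 in STD (-/-) and 6.38 in STD (+/+) (0.86 ± 0.12 SE, limma adjusted p = 0.0362). Of 8 chemokines 1 was called, the monocyte attractant *Ccl2* (0.80 ± 0.13, adjusted p = 0.0414). The T cell attractant *Cxcl9* read 9.09 in HFHS (-/-) and 9.16 in HFHS (+/+), against 8.93 in STD (-/-) and 7.93 in STD (+/+), so that only the STD (+/+) array stood apart. Of 14 MHC class I and antigen processing genes limma called 0, with 4 higher and 0 lower before adjustment, and their median diet difference was 0.26 in (-/-) and 0.27 in (+/+).

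**Figure D5:**
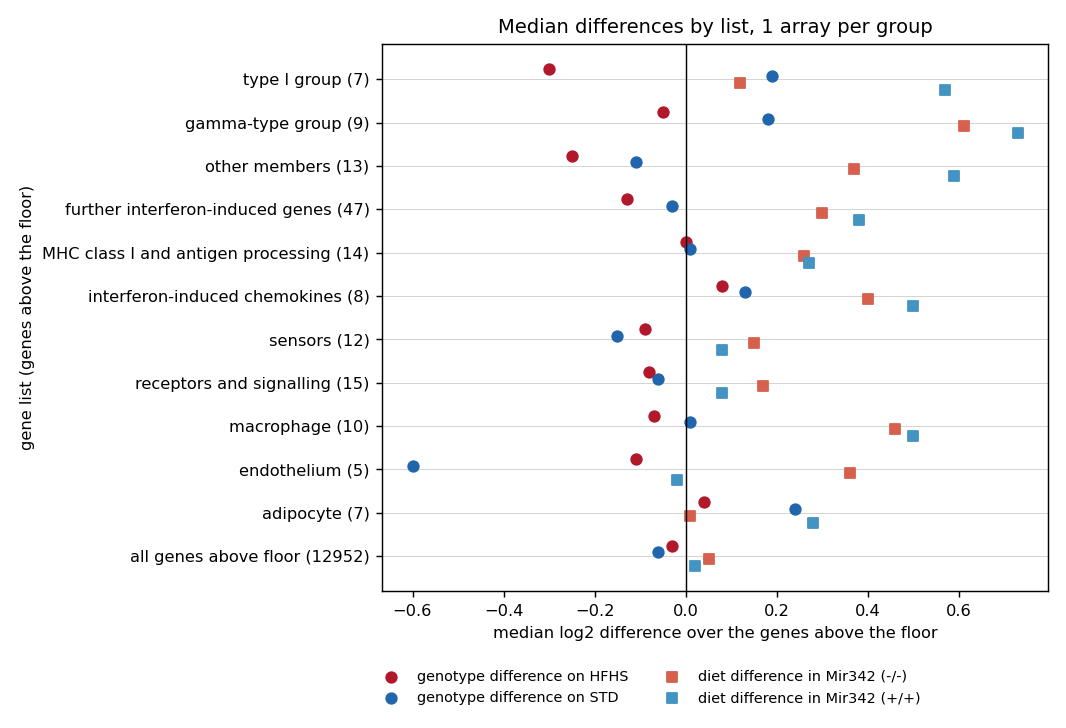
Median log2 difference of each gene list, with the number of genes above the floor in brackets, for the genotype difference on HFHS (red circles) and STD (blue circles) and the diet difference in *Mir342* (-/-) (red squares) and *Mir342* (+/+) (blue squares), 1 array per group. The diet medians of the gamma-type group are 0.61 and 0.73 and those of the macrophage markers 0.46 and 0.50, against 0.05 and 0.02 for all genes.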

How the data were processed

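RNA of mouse epididymal fat was hybridized to 4 Mouse Gene 2.0 ST arrays, each standing for a genotype on a diet. The authors deposited log2 expression values per transcript cluster, whose summarization and normalization are not given in the sources used here. They were not changed, and the table had 0 unused columns. Array medians over all 41345 probes were between 5.06 and 5.14. In the array's annotation 23521 probes carry 1 gene symbol, 1820 several and 16004 none. Per gene the single-symbol probe with the highest mean was kept, which gave 22180 genes, of which 12952 had a mean over the floor of 5.06. Arrays have no read depth, a group is 1 array, and p values measure only the spread left between these 4 arrays.

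Differences are *Mir342* (-/-) minus *Mir342* (+/+) and HFHS minus STD. The additive model of genotype and diet was fitted with limma (1 residual and 5.45 prior degrees of freedom), with Benjamini-Hochberg adjustment over 12952 genes and a threshold of 0.05. The fit was also run on simulated data with diet effects larger than those of the members and no genotype by diet difference added. That run does not show how far the calls made here hold. The members and lists were chosen with earlier results of these data known. Every member may be named. From 6 pathway lists and 8 marker lists, the genes called in the fit, the 3 with the largest diet effect per list and a set of chosen receptors, ligands and markers may be named. The alternatives were quantile normalization, centring each array, no floor, a floor raised by 1, the mean of a gene's probes, the mean in place of the median of the members, limma with a trend and robust variances, fold thresholds of 1.2 and 2, and a wider type I group. Software was limma 3.58.1 under R 4.3.3, and Python 3.11.15 (pandas 2.3.3, numpy 2.4.6, matplotlib 3.10.9).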

Additional observations from a re-analysis of the deposited data

Results flagged for a closer look

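The median genotype difference of the interferon response genes had opposite signs on the 2 diets, and the difference between the diets was not tested. The median of the 29 members above the floor, *Mir342* (-/-) minus *Mir342* (+/+), was -0.19 on HFHS and 0.10 on STD, -0.29 apart. For single genes, only those at least 1.2-fold apart on each diet were picked out, which left 3 of the 29. The share of all genes that pass this rule is not given here. Without the 1.2-fold limit, 12 of 29 members and 20.1% of all genes were lower in (-/-) on HFHS and higher in (-/-) on STD. *Irf7* was -0.26 on HFHS and 0.30 on STD, -0.57 apart. *Gbp7* was -0.35 on HFHS and 0.26 on STD, and *Xaf1* -0.34 on HFHS and 0.28 on STD, -0.62 apart each.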

How the results depend on the processing

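The number of members called for diet in the additive fit, 5 of 29, became 0 under quantile normalization, 0 with no floor and 10 of 20 with the floor raised by 1. Of all genes, limma called 238 of 12952 in the main fit and 0 of 12936 under quantile normalization. With no floor it called 0 of 22180, and with the floor raised by 1 it called 563 of 8503. The cause of these changes was not tested. The gap between type I and gamma-type members in the diet difference of *Mir342* (-/-), -0.49, became -0.27 with the floor raised by 1, over 3 and 6 genes. The other 61 values of the comparisons under the alternatives moved by less than 0.18 or kept their counts within 1.5 times. The 0.18 comes from the residual spread of single genes in the additive fit. It is not a spread of replicate arrays, of which there are none, nor of medians over many genes. The gap between the 2 groups of members ran between -0.32 and -0.04 in the diet difference of (+/+), between -0.38 and -0.14 in the genotype difference on HFHS and between -0.10 and 0.01 in that on STD. Over these settings the median genotype difference of the members stayed between -0.22 and -0.18 on HFHS and between 0.05 and 0.18 on STD, and the median diet difference between 0.31 and 0.42 in (-/-) and between 0.57 and 0.73 in (+/+). The number called for genotype was 0 in each. At 2-fold in place of 1.5-fold, 1 member was higher on HFHS in (-/-) and 2 in (+/+), and at 1.2-fold 17 and 26. At 1.2-fold, 12 members were lower in (-/-) on HFHS and 6 higher in (-/-) on STD. The shares of all genes at 1.2-fold and 2-fold are not given here. At 1.5-fold, quantile normalization gave 1 member higher in (-/-) on STD, and no floor 1 lower on each diet. Without the STD (+/+) array, an alternative chosen after seeing the data, 26 of 29 members had both HFHS arrays above the STD array. No paired analysis was possible because each group has 1 array and no replicate numbers are shared. Leaving out an array leaves the additive fit no residual, so it gives no test. Without the STD arrays of 1 genotype, the diet difference is that of the other genotype, given above.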
